A study of Mus musculus with 96 samples.

Results

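The genes of the Wnt pathway examined here are 54 of the 55536 gene IDs in the expression tables. They were taken by symbol, and comprise the 19 Wnt ligands in the tables, the 10 Frizzled (Fzd) receptors, 4 each of the Sfrp, Dkk and Rspo families, and Lrp5, Lrp6, Lgr4, Lgr6, Tcf7, Tcf7l1, Tcf7l2, Lef1, Ctnnb1, Apc, Axin1, Porcn and Wls. RNA was sequenced from intestinal organoids, epithelial cultures grown from C57BL/6 mice, in 4 genotypes that the labels write as APCmin/-;BMAL1-/-, APCmin/-;BMAL1+/+, APC+/+;BMAL1-/- and APC+/+;BMAL1+/+. They are called Apc-min Bmal1-null, Apc-min, Bmal1-null and control organoids below. All cultures had received 0.1 µM dexamethasone, a glucocorticoid that sets cellular clocks to a common phase, for 1 h, and were collected every 2 h from 24 to 46 h later. The tables hold 22 libraries of each genotype, 88 in all, from 2 organoid lines per genotype. Which library came from which line is not given, so p-values reflect how libraries vary, not how lines do.

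Wnt proteins are lipid-modified ligands that bind a Frizzled receptor together with Lrp5 or Lrp6. Binding stops a complex built on Apc and Axin1 from destroying beta-catenin (Ctnnb1), which then joins TCF/LEF factors on their target genes. In the intestinal crypt this signal keeps stem cells dividing, R-spondins strengthen it through Lgr receptors, and Sfrp and Dkk proteins can dampen it. The Min allele of Apc is a nonsense mutation, and Bmal1, whose gene is listed as Arntl, is a core activator of the circadian clock.

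Several features of the series bear on every comparison below. Organoids with APCmin were kept in EN medium, whereas ENR, a medium with R-spondin, was used for those without it, so the effect of the Apc genotype and that of the medium cannot be told apart. Library numbers also divide by Apc genotype (1 to 48, and 49 to 96), and the mean share of reads left unmapped for shortness was 1.31% in Apc-min Bmal1-null and 1.3% in Apc-min libraries, against 6.00% in Bmal1-null and 6.73% in control libraries. Each library had between 28769449 and 48081308 uniquely mapped reads. Arntl read 2 to 14.7 TPM in Apc-min Bmal1-null and 4.09 to 17.3 TPM in Apc-min libraries, and 6.31 to 10.9 TPM in Bmal1-null against 11.3 to 20.7 TPM in control libraries. The libraries numbered 9 and 10, both from 28 h, went against their Bmal1 labels. The library labelled Apc-min Bmal1-null (number 10) had the 14.7 TPM, where the other 21 had at most 6.22 TPM, and the library labelled Apc-min (number 9) had the 4.09 TPM, where the other 21 had at least 7.2 TPM. Results that rest most on them are given with and without both. Other values, and all cell type markers, are over all libraries. Some extremes of the ranges with APCmin are therefore those of libraries 9 and 10. All 6 epithelial markers listed exceeded 1 TPM in every genotype, and of 10 fibroblast and mesenchyme markers 1 did so in each. In Apc-min Bmal1-null organoids the fibroblast and mesenchyme marker did so only through its highest library. In bulk RNA, fewer cells of a type and less RNA per cell cannot be told apart.

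Of the 54 genes, 22 were expressed at a mean of 1 TPM (a share of all transcripts, corrected for transcript length) or more in Apc-min Bmal1-null organoids, 27 in Apc-min, 21 in Bmal1-null and 21 in control organoids. In that order these were 40.74%, 50%, 38.89% and 38.89%, beside 21.98%, 22.73%, 22.6% and 22.63% of all 55536 gene IDs. The 16 expressed in every genotype were Wnt6, the secretion genes Porcn and Wls, Fzd1, Fzd5, Fzd6, Fzd7, Fzd8, Lrp5, Lrp6, Lgr4, Apc, Axin1, Ctnnb1, Tcf7 and Tcf7l2. Wnt4, Wnt7a, Wnt7b and Wnt10a were expressed in both genotypes with APCmin alone, and Wnt3 and Fzd4 in both genotypes without it alone. Wnt11, Dkk2, Dkk3, Sfrp2 and Lef1 reached 1 TPM in Apc-min organoids alone, Fzd3 in Apc-min Bmal1-null organoids alone and Tcf7l1 in Bmal1-null organoids alone. Fzd2 fell short in Apc-min Bmal1-null organoids, Fzd9 in Apc-min organoids, and Sfrp5 was expressed in Apc-min and control organoids. None of these calls changed without libraries 9 and 10.

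The threshold passed through a run of close values. Tcf7l1 in Bmal1-null (1.03 TPM), Wnt6 in control (1.16 TPM) and Sfrp5 in control organoids (1.17 TPM) lay just inside, and Fzd9 (0.995 TPM) and Fzd3 (0.945 TPM) in Apc-min organoids just outside. The other 22 genes stayed under 1 TPM in all 4 genotypes, with means of 0 to 0.675 TPM. They were Wnt1, Wnt2, Wnt2b, Wnt3a, Wnt5a, Wnt5b, Wnt8a, Wnt8b, Wnt9a, Wnt9b, Wnt10b, Wnt16, Fzd10, Rspo1, Rspo2, Rspo3, Rspo4, Lgr6, Sfrp1, Sfrp4, Dkk1 and Dkk4. All 4 R-spondins were among them, the highest mean being 0.197 TPM for Rspo3 in Apc-min organoids. Fzd10, the highest of the 22, spanned 0.03 to 1.46 TPM in Apc-min libraries.

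Start sites of the genes were examined for the letters that TCF/LEF factors and the Bmal1 complex are known to bind. RefSeq promoter windows (GRCm38.p6, 250 bases before to 50 after a start) were available for 35 of the 54 genes, 44 windows in all. The TCF/LEF core CTTTGA, on either strand, stood in 5 of the 44 windows (11.4%), against 16% of all 32851 windows. The E-box CACGTG stood in 4 of the 44 (9.09%), against 7.15% of all windows. Among genes expressed in at least 1 genotype, the windows with either motif belong to Lef1, Wnt11, Fzd1 and Fzd9. Their 250 bases before the start are shown, 5′ to 3′ on the strand of the gene, with both motifs in capitals, because these are the expressed genes whose start regions hold either motif. They are Lef1 at chr3:131156044-131156293 (plus strand, an internal start), Wnt11 at chr7:98834862-98835111 (plus strand), Fzd1 at chr5:4758217-4758466 (minus strand) and Fzd9 at chr5:135251048-135251297 (minus strand).
Lef1: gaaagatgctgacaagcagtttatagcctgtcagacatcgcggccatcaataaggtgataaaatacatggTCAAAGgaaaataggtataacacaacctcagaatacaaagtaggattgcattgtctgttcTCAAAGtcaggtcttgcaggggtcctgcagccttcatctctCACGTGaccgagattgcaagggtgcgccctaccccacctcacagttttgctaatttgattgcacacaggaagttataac
Wnt11: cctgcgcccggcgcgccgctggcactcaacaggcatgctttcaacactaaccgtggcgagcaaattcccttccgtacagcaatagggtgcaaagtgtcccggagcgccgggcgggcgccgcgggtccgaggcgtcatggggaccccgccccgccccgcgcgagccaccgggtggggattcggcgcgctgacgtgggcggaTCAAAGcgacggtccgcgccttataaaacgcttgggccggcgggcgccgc
Fzd1: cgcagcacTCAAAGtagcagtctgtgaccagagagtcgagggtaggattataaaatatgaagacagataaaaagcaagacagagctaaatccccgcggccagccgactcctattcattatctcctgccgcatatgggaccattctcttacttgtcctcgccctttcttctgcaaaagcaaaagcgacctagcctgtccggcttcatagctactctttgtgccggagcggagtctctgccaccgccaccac
Fzd9: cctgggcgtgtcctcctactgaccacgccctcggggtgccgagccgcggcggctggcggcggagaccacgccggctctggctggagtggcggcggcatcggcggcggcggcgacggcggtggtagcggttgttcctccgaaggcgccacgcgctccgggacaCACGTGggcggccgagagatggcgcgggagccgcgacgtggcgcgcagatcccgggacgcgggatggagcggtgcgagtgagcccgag
The Lef1 window holds TCF/LEF cores that begin 180 and 120 bases before the start and an E-box at 79 bases, and the other 3 Lef1 windows hold neither. The core begins 50 bases before the start in Wnt11 and 242 bases before it in Fzd1, and the Fzd9 E-box begins at 88 bases. The other windows with a motif belong to Dkk1 and Wnt5b (TCF/LEF core) and to Rspo4 and Wnt9a (E-box), none of which reached 1 TPM. A match of letters is a description and shows no binding.

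Levels were compared as differences in log2(TPM + 1), called log2 differences below, which understate the change of genes with low levels. Each was tested in limma, adjusting for time point, with Benjamini-Hochberg adjustment over all genes of 1 TPM or more in either genotype. In the comparison of Apc-min Bmal1-null with Bmal1-null organoids 14 of 26 tested genes of the pathway were higher, beside 45.7% of all 13404 genes tested, and 10 were lower, beside 38.8%. At 2-fold or more 7 were higher, beside 11.6% of all genes, and 5 lower, beside 14.8%. Between Apc-min and control organoids 17 of 30 were higher, beside 50.5% of all 13663 genes, and 7 lower, beside 31.1%. At 2-fold or more 14 were higher, beside 12.1%, and 5 lower, beside 12.4%. The median log2 difference of the pathway genes was 0.34 between Apc-min Bmal1-null and Bmal1-null organoids, beside 0.07 over all genes, and 0.68 between Apc-min and control organoids, beside 0.17. A gene enters the test by reaching 1 TPM in either genotype, so a gene read in a single genotype had to differ, and the counts are given as a description. Median-of-ratios scaling of the libraries moved the median of all genes between Apc-min and control organoids by -0.15, and the medians of the other comparisons by less than 0.1.

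**Figure D1:**
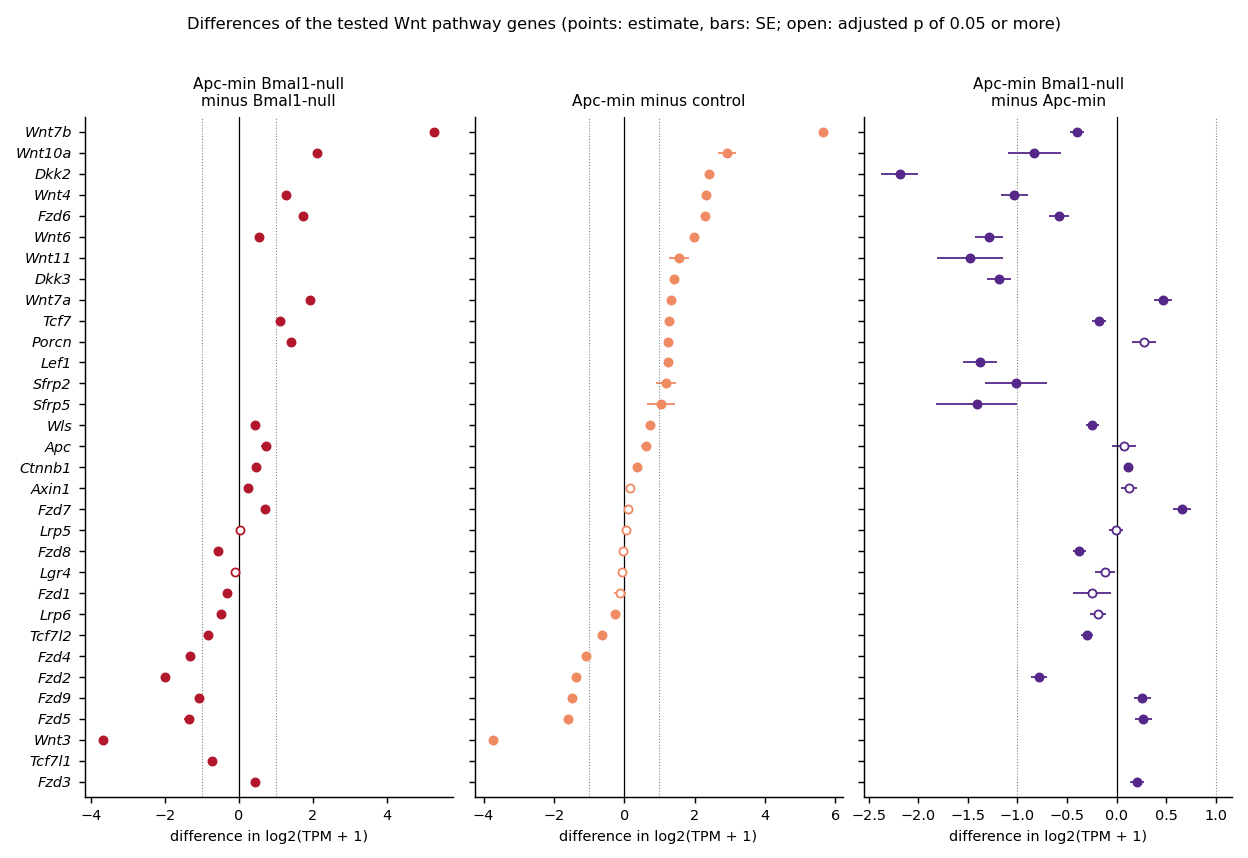
Log2 differences of the tested Wnt pathway genes (x axis, in log2(TPM + 1)) for Apc-min Bmal1-null minus Bmal1-null, Apc-min minus control, and Apc-min Bmal1-null minus Apc-min organoids; points are limma estimates, bars their SE, open points have an adjusted p of 0.05 or more, and dotted lines mark 2-fold. Wnt7b lies farthest to the right in the Apc comparisons (5.27 and 5.66) and Wnt3 farthest to the left (-3.68 and -3.73), while Dkk2 lies farthest to the left between Apc-min Bmal1-null and Apc-min organoids (-2.19).

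Among the ligands, Wnt3 was the main Wnt of organoids without APCmin and Wnt7b that of organoids with it. Wnt3 (ENSMUSG00000000125, GRCm38 chromosome 11, 103774150 to 103817957, plus strand), which Paneth cells are known to supply to stem cells in the mouse small intestine, was at 0.01 to 0.22 TPM (median 0.075) in Apc-min Bmal1-null and at 0 to 0.4 TPM (median 0.085) in Apc-min libraries. It was at 10.5 to 15.3 TPM (median 13.1) in Bmal1-null and at 11.1 to 16 TPM (median 13.8) in control libraries. No library with APCmin came near any library without it. The log2 difference was -3.68 ± 0.04 between Apc-min Bmal1-null and Bmal1-null organoids (limma, adjusted p = 5.05e-41) and -3.73 ± 0.05 between Apc-min and control organoids (adjusted p = 2.78e-38; SE, n = 22 per genotype). Wnt3 made up 82.2% ± 2.25 of the summed Wnt ligand TPM in Bmal1-null and 83.4% ± 2.12 in control libraries (SD, n = 22 each).

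Markers of Paneth cells and of other differentiated cell types were lower where Wnt3 was. Of 6 Paneth markers, 4 exceeded 1 TPM in Apc-min Bmal1-null and in Apc-min organoids, and all 6 in Bmal1-null and control organoids. Their summed level was 320 to 2086 TPM in Apc-min Bmal1-null and 389 to 3633 TPM in Apc-min libraries, against 15604 to 22719.7 TPM in Bmal1-null and 13975 to 23776 TPM in control libraries. No marker was at 0 in every library of a genotype, and the metalloproteinase Mmp7 made up most of what the genotypes with APCmin had, with means of 563 and 1843 TPM, against 393 TPM in Bmal1-null and 465 TPM in control organoids. The summed levels of 6 goblet markers were at most 394 TPM in Apc-min Bmal1-null and 322 TPM in Apc-min libraries, against at least 6438 TPM in Bmal1-null and 6584 TPM in control libraries. Those of 6 enterocyte markers were at most 373 TPM in Apc-min Bmal1-null and 819.8 TPM in Apc-min libraries, against at least 5178 TPM in Bmal1-null and 5654 TPM in control libraries. Enteroendocrine markers (6) summed to at most 2.67 TPM in Apc-min Bmal1-null and 1.92 TPM in Apc-min libraries, against at least 483 TPM in Bmal1-null and 464 TPM in control libraries. The part of any of these cell types in the Wnt3 difference was not tested.

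Wnt7b (ENSMUSG00000022382, chromosome 15, 85535437 to 85582473, minus strand) was at 26.2 to 54.1 TPM (median 38.2) in Apc-min Bmal1-null and at 35.8 to 70.2 TPM (median 48.7) in Apc-min libraries. It was at 0 to 0.05 TPM in Bmal1-null and at 0 to 0.04 TPM in control libraries, with a median of 0 in both. Every library with APCmin was above every library without it, with log2 differences of 5.27 ± 0.06 between Apc-min Bmal1-null and Bmal1-null (limma, adjusted p = 4.94e-41) and 5.66 ± 0.07 between Apc-min and control organoids (adjusted p = 4.32e-39). Wnt7b was 76% ± 3.73 of the summed Wnt TPM in Apc-min Bmal1-null and 63.7% ± 4.37 in Apc-min libraries (SD, n = 22 each). That sum averaged 50.9 TPM ± 10.3 in Apc-min Bmal1-null and 79.4 TPM ± 15.3 in Apc-min organoids, against 15.9 TPM ± 1.69 in Bmal1-null and 16.8 TPM ± 1.56 in control organoids.

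Wnt10a, Wnt4 and Wnt7a, all at means of 0.101 TPM or less without APCmin, were read in every library with it. Wnt10a was at 2.33 to 6.78 TPM (median 3.42) in Apc-min Bmal1-null and 2.1 to 17.5 TPM (median 12.6) in Apc-min libraries, against at most 0.3 TPM in Bmal1-null and 0.42 TPM in control libraries. Its log2 differences were 2.11 ± 0.09 (limma, adjusted p = 1.14e-21) and 2.92 ± 0.25 (adjusted p = 7.97e-13) against the same Bmal1 genotype without APCmin. Wnt4 was at 0.88 to 4.4 TPM (median 1.31) in Apc-min Bmal1-null and 0.81 to 5.79 TPM (median 4.37) in Apc-min libraries, and at most 0.06 TPM in Bmal1-null and 0.05 TPM in control libraries (log2 differences 1.28 ± 0.09 and 2.33 ± 0.10). Wnt7a was at 1.3 to 5.53 TPM (median 2.52) in Apc-min Bmal1-null and 0.6 to 3.57 TPM (median 1.81) in Apc-min libraries, against at most 0.05 TPM in Bmal1-null and 0.56 TPM in control libraries (1.91 ± 0.08 and 1.32 ± 0.09). For all 3 genes the libraries with APCmin lay above those without it, with no overlap. For Wnt4, the 4.4 TPM belongs to library 10 and the 0.81 TPM to library 9. Without them Apc-min Bmal1-null libraries had at most 2.43 TPM of Wnt4 and Apc-min libraries at least 2.17 TPM.

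Wnt6, a neighbour of Wnt10a on chromosome 1, was at 1.45 to 4.32 TPM (median 2.38) in Apc-min Bmal1-null and 2.72 to 12.9 TPM (median 8.79) in Apc-min libraries, and at 0.84 to 2.25 TPM (median 1.27) in Bmal1-null and 0.47 to 1.94 TPM (median 1.2) in control libraries. It was higher in Apc-min than in control organoids without overlap (log2 difference 1.99 ± 0.14, limma, adjusted p = 1.73e-15), and higher in Apc-min Bmal1-null than in Bmal1-null organoids by 0.56 ± 0.08 with overlap (adjusted p = 8.47e-08). Wnt11 was at 0.03 to 7.85 TPM (median 0.12) in Apc-min Bmal1-null and 0.15 to 14.6 TPM (median 1.08) in Apc-min libraries, against 0.09 to 0.52 TPM (median 0.24) in Bmal1-null and 0.06 to 0.61 TPM (median 0.195) in control libraries. Within each label, library 10 held the highest Apc-min Bmal1-null value and library 9 the lowest Apc-min value of both genes. Without the pair Wnt6 was at 1.45 to 3.63 TPM in Apc-min Bmal1-null and 4.31 to 12.9 TPM in Apc-min libraries. The log2 difference of Wnt11 between Apc-min and control organoids was 1.56 ± 0.28 (limma, adjusted p = 7.24e-06). Taken per library set (explained below) that call was kept with the pair (adjusted p = 0.0381) and lost without it (adjusted p = 0.0507).

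**Figure D2:**
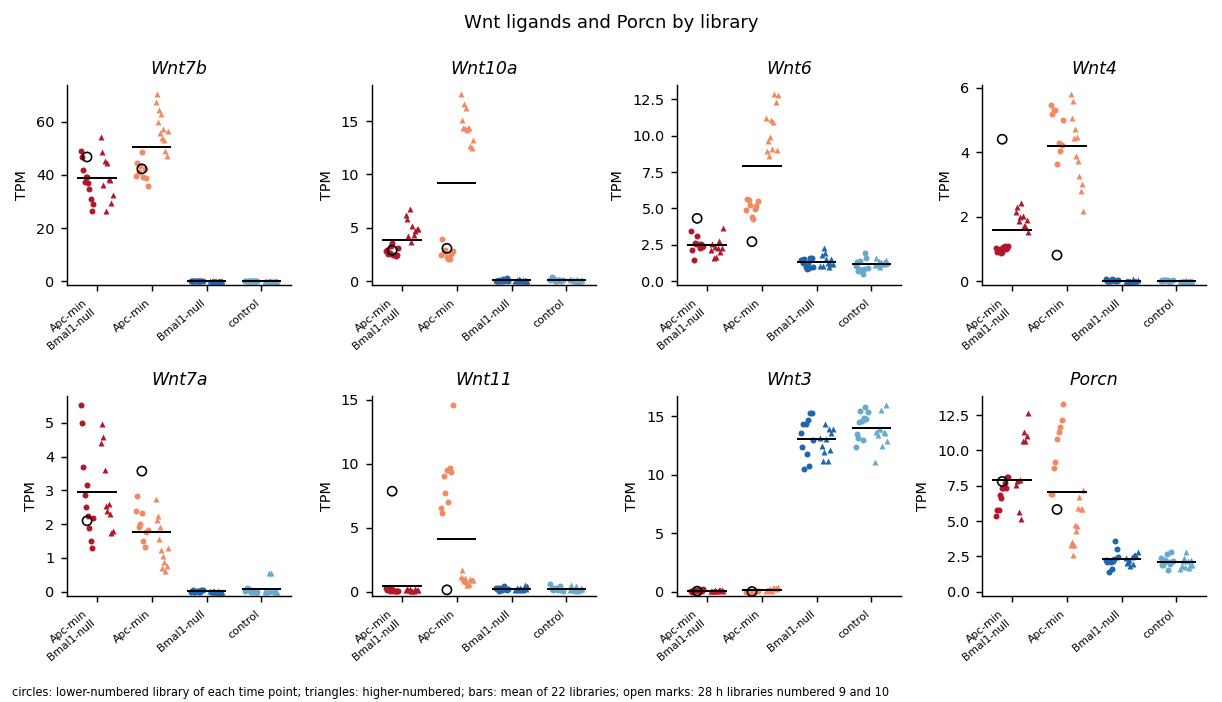
TPM of 7 Wnt ligands and the Wnt acyltransferase Porcn in every library (y axis, linear, a scale for each gene), by genotype; circles and triangles are the lower- and higher-numbered library of each time point, bars the mean of 22 libraries, open marks libraries 9 and 10. Wnt3 stands at 10.5 TPM or more in every library without APCmin and at 0.4 TPM or less in every library with it, and the Apc-min libraries of Wnt10a, Wnt11, Wnt6 and Porcn split by set.

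Genes that Wnt proteins need to leave the cell were higher with APCmin. Porcn, the enzyme that attaches the lipid to Wnts, was at 5.16 to 12.7 TPM (median 7.63) in Apc-min Bmal1-null and 2.59 to 13.3 TPM (median 6.31) in Apc-min libraries, against 1.39 to 3.56 TPM (median 2.25) in Bmal1-null and 1.54 to 2.8 TPM (median 2.10) in control libraries. The first pair of groups did not overlap and the second did, by a margin of 2.59 to 2.8 TPM. Its log2 differences were 1.40 ± 0.07 between Apc-min Bmal1-null and Bmal1-null (limma, adjusted p = 1.25e-19) and 1.25 ± 0.13 between Apc-min and control organoids (adjusted p = 3.41e-11). Wls, which carries Wnts to the cell surface, averaged 38.6 TPM ± 6.59 in Apc-min Bmal1-null and 46.6 TPM ± 7.34 in Apc-min organoids, and 28.1 TPM ± 4.08 in Bmal1-null and 27.6 TPM ± 4.69 in control organoids (SD, n = 22 each). Its log2 differences, 0.43 ± 0.07 and 0.74 ± 0.07, passed the adjusted p but not 2-fold.

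Among the Frizzled receptors Fzd5 was lower and Fzd6 higher with APCmin. Fzd5 (ENSMUSG00000045005, chromosome 1, 64730558 to 64737751, minus strand), a receptor known to be needed by mouse Paneth cells, was at 4.58 to 18.5 TPM (median 14.5) in Apc-min Bmal1-null and 7.19 to 14.9 TPM (median 11.2) in Apc-min libraries. It was at 19.8 to 55 TPM (median 35.3) in Bmal1-null and 16.6 to 51.1 TPM (median 36.2) in control libraries. In either Bmal1 genotype the libraries with APCmin lay below those without it, by -1.36 ± 0.13 in log2 between Apc-min Bmal1-null and Bmal1-null (limma, adjusted p = 5.44e-12) and by -1.59 ± 0.12 between Apc-min and control organoids (adjusted p = 1.64e-14). Fzd6 (ENSMUSG00000022297, chromosome 15, 39006034 to 39038188, plus strand), tied chiefly to planar cell polarity, was at 5.83 to 34.3 TPM (median 16.7) in Apc-min Bmal1-null and 14.8 to 36.5 TPM (median 25.3) in Apc-min libraries. It was at 2.63 to 5.45 TPM (median 4.4) in Bmal1-null and 2.75 to 5.9 TPM (median 4.5) in control libraries. These groups did not overlap, and the log2 differences were 1.73 ± 0.11 (limma, adjusted p = 8.84e-17) and 2.30 ± 0.09 (adjusted p = 2.61e-23). The 34.3 TPM of Fzd6 belongs to library 10 and the 14.8 TPM to library 9. Without them Apc-min Bmal1-null libraries had at most 19.4 TPM and Apc-min libraries at least 17.8 TPM. Fzd5 was 25.1% ± 2.89 of the summed Frizzled TPM in Apc-min Bmal1-null and 19.4% ± 2.31 in Apc-min libraries, against 52.7% ± 4.65 in Bmal1-null and 52% ± 5.58 in control libraries (SD, n = 22 each). Fzd6 led the family with 30.9% ± 4.21 in Apc-min Bmal1-null and 44.7% ± 4.25 in Apc-min libraries. In Apc-min Bmal1-null libraries Fzd7 stood close behind at 29.3% ± 4.86.

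Fzd2, Fzd4 and Fzd9 were lower with APCmin. Fzd2 was at 0.11 to 1.51 TPM (median 0.34) in Apc-min Bmal1-null and 0.33 to 2.16 TPM (median 1.49) in Apc-min libraries, against 3.08 to 6.36 TPM (median 4.34) in Bmal1-null and 3.14 to 6.49 TPM (median 5.13) in control libraries. Fzd4 was at 0.22 to 1.39 TPM (median 0.535) in Apc-min Bmal1-null and 0.39 to 1.42 TPM (median 0.705) in Apc-min libraries, against 1.82 to 4.51 TPM (median 3.07) in Bmal1-null and 1.53 to 3.76 TPM (median 2.65) in control libraries. Fzd9 was at 0.8 to 1.96 TPM (median 1.37) in Apc-min Bmal1-null and 0.41 to 1.76 TPM (median 1.08) in Apc-min libraries, against 3.34 to 5.02 TPM (median 4.03) in Bmal1-null and 3.43 to 6 TPM (median 4.36) in control libraries. None of the groups with APCmin overlapped its counterpart. For Fzd2 the 1.51 TPM belongs to library 10 and the 0.33 TPM to library 9. Without them Apc-min Bmal1-null libraries had at most 0.52 TPM of Fzd2 and Apc-min libraries at least 1.01 TPM. The 1.39 TPM of Fzd4 is also from library 10. The log2 differences between Apc-min Bmal1-null and Bmal1-null organoids were -1.99 ± 0.07 for Fzd2, -1.33 ± 0.07 for Fzd4 and -1.07 ± 0.05 for Fzd9 (limma, adjusted p = 1.95e-25, 3.62e-19 and 5.46e-20). Between Apc-min and control organoids they were -1.38 ± 0.07, -1.09 ± 0.07 and -1.49 ± 0.08 (adjusted p = 3.58e-19, 1.42e-16 and 3.78e-19).

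The other Frizzled genes moved less. Fzd7, a receptor of intestinal stem cells in mice, averaged 15.6 TPM ± 4.28 in Apc-min Bmal1-null and 9.67 TPM ± 2.19 in Apc-min organoids, and 8.94 TPM ± 1.91 in Bmal1-null and 8.79 TPM ± 1.71 in control organoids (SD, n = 22 each). It was higher in Apc-min Bmal1-null than in Bmal1-null organoids by 0.71 ± 0.10 in log2 (limma, adjusted p = 1.08e-07), and its difference between Apc-min and control organoids, 0.10 ± 0.10, did not pass (adjusted p = 0.342). Fzd8 averaged 1.51 TPM ± 0.458 in Apc-min Bmal1-null and 2.3 TPM ± 0.449 in Apc-min organoids, and 2.68 TPM ± 0.473 in Bmal1-null and 2.33 TPM ± 0.46 in control organoids. Fzd8 was lower in Apc-min Bmal1-null than in Bmal1-null organoids (-0.57 ± 0.07, adjusted p = 1.68e-09), as was Fzd1 (-0.32 ± 0.09, adjusted p = 0.00255), and Fzd3 was higher (0.44 ± 0.06, adjusted p = 1.49e-08). Fzd1 and Fzd8 did not pass between Apc-min and control organoids, though Fzd8 passed as lower after median-of-ratios scaling (adjusted p = 0.00705).

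**Figure D3:**
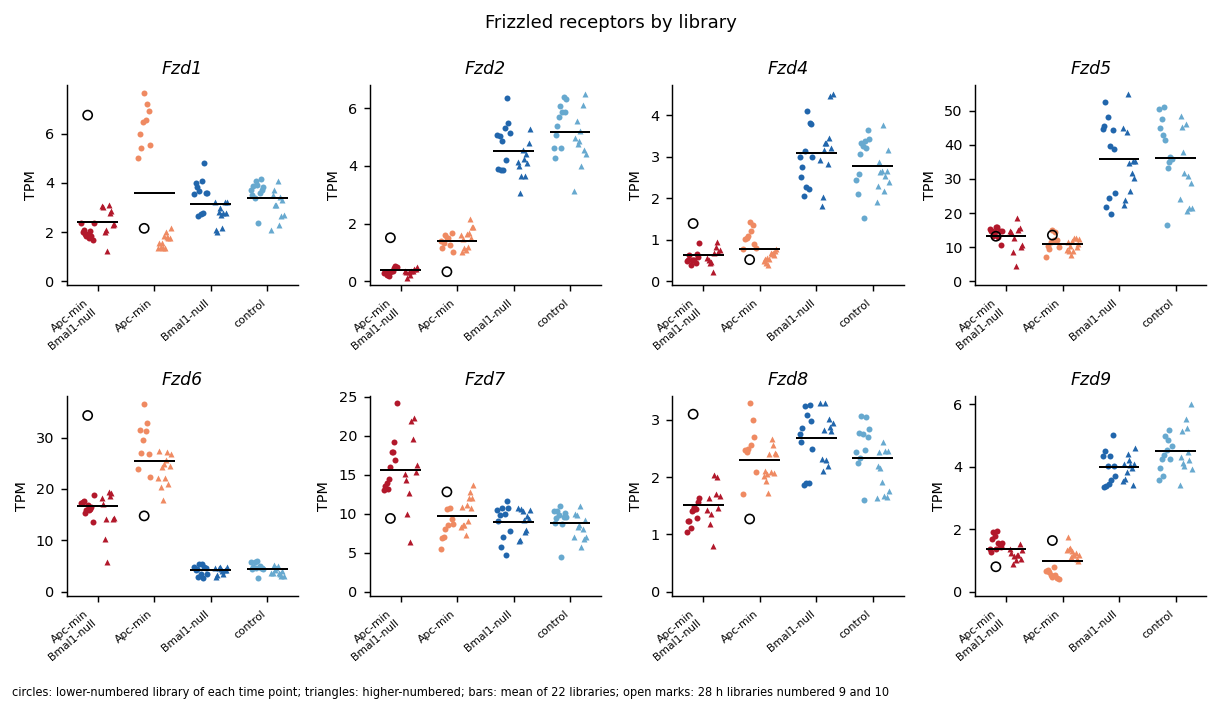
TPM of 8 Frizzled receptors in every library (y axis, linear, a scale for each gene), by genotype, with marks as in the plot of the Wnt ligands. Fzd5 libraries with APCmin stop at 18.5 TPM and those without it begin at 16.6 TPM, in different Bmal1 genotypes, and Fzd6 libraries with APCmin begin at 5.83 TPM, where those without it stop at 5.9 TPM.

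The co-receptor Lrp5 and the R-spondin receptor Lgr4 had similar means in all genotypes. Lrp5 averaged 55.5 TPM ± 10.2 in Apc-min Bmal1-null and 56.4 TPM ± 7.54 in Apc-min organoids, and 53.8 TPM ± 10.2 in Bmal1-null and 54.6 TPM ± 10.3 in control organoids (SD, n = 22 each). Lgr4 averaged 46.5 TPM ± 8.56 in Apc-min Bmal1-null and 51.3 TPM ± 11.7 in Apc-min organoids, and 50.2 TPM ± 9.27 in Bmal1-null and 54 TPM ± 12 in control organoids. Neither passed in limma as deposited (adjusted p of 0.26 to 0.817), but Lgr4 passed as lower with APCmin after scaling (adjusted p = 0.0033 and 0.00819), as did Lrp5 between Apc-min and control organoids (adjusted p = 0.0404). Lrp6 was lower in Apc-min Bmal1-null than in Bmal1-null organoids (-0.48 ± 0.10, adjusted p = 6.52e-05) and in Apc-min than in control organoids (-0.26 ± 0.10, adjusted p = 0.0162). Taken per library set (explained below), the second Lrp6 difference did not pass (adjusted p = 0.135).

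Secreted antagonists had their highest levels in Apc-min organoids, and 2 of them in a single library set. A library set is the lower- or the higher-numbered library of each time point, 10 and 12 libraries in Apc-min and 12 and 10 in Apc-min Bmal1-null organoids; the labels do not say what it stands for. Dkk2 (ENSMUSG00000028031, chromosome 3, 132085292 to 132180304, plus strand), which binds Lrp6, was at 0 to 4.92 TPM (median 0.03) in Apc-min Bmal1-null and 0.07 to 6.91 TPM (median 4.3) in Apc-min libraries, against at most 0.03 TPM in Bmal1-null and 0.01 TPM in control libraries. Both the 4.92 and the 0.07 TPM belong to the pair from 28 h. Without them Apc-min Bmal1-null libraries had at most 0.14 TPM and Apc-min libraries at least 3.13 TPM. Dkk3, a divergent member of the family, was at 0.06 to 2.55 TPM (median 0.215) in Apc-min Bmal1-null and 0.42 to 3.35 TPM (median 2.01) in Apc-min libraries, against at most 0.18 TPM in Bmal1-null and 0.21 TPM in control libraries. Without the pair the limits were 0.38 TPM at most in Apc-min Bmal1-null and 1.13 TPM at least in Apc-min libraries. Between Apc-min and control organoids the log2 differences were 2.39 ± 0.11 for Dkk2 (limma, adjusted p = 2.96e-20) and 1.41 ± 0.08 for Dkk3 (adjusted p = 6.97e-18), and both calls were kept with set means as units.

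Sfrp2 and Sfrp5, which bind Wnt proteins outside the cell, were each read in a different set of Apc-min libraries. Sfrp5 was at 0.09 to 0.35 TPM in the lower-numbered Apc-min libraries (n = 10) and at 7.02 to 15.1 TPM in the higher-numbered (n = 12). Sfrp2 was the reverse, at 0 to 7 TPM with a mean of 4.58 TPM ± 1.93 in the lower-numbered libraries and at 0.08 to 0.39 TPM in the higher-numbered, where the 0 belongs to library 9. In the other genotypes Sfrp5 was at 0.22 to 1.45 TPM in Apc-min Bmal1-null, 0.42 to 1.05 TPM in Bmal1-null and 0.64 to 1.65 TPM in control libraries. Sfrp2 was at most 0.08 TPM in Apc-min Bmal1-null libraries other than library 10, which had 5.34 TPM, and at most 0.02 TPM in Bmal1-null and control libraries. Over 22 libraries both passed between Apc-min and control organoids (Sfrp5 1.05 ± 0.41, limma, adjusted p = 0.0191; Sfrp2 1.18 ± 0.27, adjusted p = 0.000196), and with set means as units neither did (adjusted p = 0.436 and 0.087).

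The sets of Apc-min libraries differed in other members too. In the lower-numbered against the higher-numbered libraries, Wnt11 averaged 7.95 TPM ± 3.64 and 0.916 TPM ± 0.309, Fzd1 5.89 TPM ± 1.56 and 1.65 TPM ± 0.277, and Porcn 9.68 TPM ± 2.54 and 4.83 TPM ± 1.47 (SD, n = 10 and 12). Wnt10a averaged 2.7 TPM ± 0.543 and 14.6 TPM ± 1.53, and Wnt6 4.84 TPM ± 0.874 and 10.5 TPM ± 1.56. For Wnt10a the sets did not overlap, with at most 3.91 TPM in the lower-numbered and at least 12.5 TPM in the higher-numbered libraries. Apc-min Bmal1-null libraries showed a smaller split of Wnt10a, at 2.33 to 3.55 TPM in the lower-numbered and 3.7 to 6.78 TPM in the higher-numbered libraries. Wnt7b, Dkk2 and Tcf7 were high in both sets, with Apc-min means of 41.5 and 58 TPM, 4.9 and 4.1 TPM, and 23.7 and 29 TPM.

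Fibroblasts and mesenchyme are known to make Wnt antagonists, and in each genotype 1 of 10 of their markers averaged above 1 TPM. The 10 fibroblast and mesenchyme markers summed to 0.29 to 12.8 TPM in Apc-min Bmal1-null and 0.74 to 12.7 TPM in Apc-min libraries, against 1.57 to 2.94 TPM in Bmal1-null and 1.21 to 2.76 TPM in control libraries. The marker above 1 TPM differed by Apc genotype. Pdpn averaged 1.02 TPM in Apc-min Bmal1-null organoids, with libraries from 0.17 to 11.56 TPM, and passed 1 TPM only through the highest of them. It averaged 5.66 TPM in Apc-min organoids (0.51 to 11.83 TPM) and was at 0 in all Bmal1-null and control libraries. Pdgfrb went the other way, with means of 0.0255 TPM in Apc-min Bmal1-null and 0.0614 TPM in Apc-min organoids, against 2.06 TPM in Bmal1-null and 1.85 TPM in control organoids. Acta2, a smooth muscle marker that myofibroblasts share, averaged 7.38 TPM in Apc-min Bmal1-null and 2.07 TPM in Apc-min organoids, against 0.00727 TPM in Bmal1-null and 0.00455 TPM in control organoids. The collagen genes Col1a1, Col1a2 and Col3a1 were at means of 0.078 TPM or less in every genotype, and Lum and Foxl1 were at 0 in all Apc-min libraries. Which cells made the antagonists was not tested.

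Ctnnb1 and Apc were moderately higher with APCmin. Ctnnb1 was at 743 to 1083 TPM (median 958) in Apc-min Bmal1-null and 819 to 1002 TPM (median 876) in Apc-min libraries, against 609 to 825 TPM (median 694) in Bmal1-null and 558 to 810 TPM (median 683) in control libraries. The Apc-min and control libraries did not overlap. Log2 differences were 0.47 ± 0.03 between Apc-min Bmal1-null and Bmal1-null (limma, adjusted p = 2.84e-16) and 0.37 ± 0.03 between Apc-min and control organoids (adjusted p = 1.02e-12). Scaling brought the second of these to 0.20. Apc itself (ENSMUSG00000005871, chromosome 18, 34220924 to 34322552, plus strand) was at 5.38 to 24 TPM (median 16) in Apc-min Bmal1-null and 7.22 to 22.3 TPM (median 14.2) in Apc-min libraries. It was at 4.02 to 12.1 TPM (median 9.66) in Bmal1-null and 4.39 to 14.4 TPM (median 9.64) in control libraries. These groups overlapped, and the log2 differences were 0.74 ± 0.14 (adjusted p = 8.26e-06) and 0.62 ± 0.15 (adjusted p = 0.000257). A level per gene does not show the Min mutation. Axin1 passed in Apc-min Bmal1-null against Bmal1-null organoids (0.25 ± 0.08, adjusted p = 0.00422), with means of 48.5 TPM ± 8.45 and 40 TPM ± 5.84.

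Among the transcription factors, Tcf7 and Tcf7l2 exchanged rank. Tcf7 (ENSMUSG00000000782, chromosome 11, 52252371 to 52283014, minus strand), also called TCF1, was at 12.9 to 28 TPM (median 23.5) in Apc-min Bmal1-null and 18.3 to 32.7 TPM (median 26) in Apc-min libraries, against 6.54 to 13.8 TPM (median 10.1) in Bmal1-null and 7.25 to 13.4 TPM (median 10.7) in control libraries. Apc-min libraries all lay above control libraries, and the lowest Apc-min Bmal1-null library fell within the Bmal1-null range. The log2 differences were 1.11 ± 0.08 (limma, adjusted p = 3.09e-15) and 1.26 ± 0.08 (adjusted p = 3.48e-17). Tcf7l2, the TCF4 protein on which crypt stem cells depend in mice, was lower with APCmin (log2 differences -0.85 ± 0.08 and -0.63 ± 0.08), with means of 9.16 TPM ± 1.88 in Apc-min Bmal1-null and 11.9 TPM ± 2.47 in Apc-min organoids, against 17.1 TPM ± 3.05 in Bmal1-null and 18.8 TPM ± 3.05 in control organoids (adjusted p = 1.58e-11 and 6.13e-09). Tcf7 thus made up 70.8% ± 3.36 of the summed TPM of the 4 factors in Apc-min Bmal1-null and 64.4% ± 7.04 in Apc-min libraries, against 35.6% ± 2.27 in Bmal1-null and 34.8% ± 2.4 in control libraries (SD, n = 22 each). Lef1, at 0 to 3.87 TPM (median 0.065) in Apc-min Bmal1-null and 0.18 to 5.01 TPM (median 1.85) in Apc-min libraries, was at 0.05 to 0.35 TPM (median 0.135) in Bmal1-null and 0.09 to 0.68 TPM (median 0.28) in control libraries. Its log2 difference between Apc-min and control organoids was 1.25 ± 0.12 (adjusted p = 1.21e-11), and without library 9 the 2 groups did not overlap. Tcf7l1, known mostly as a repressor, averaged 0.205 TPM ± 0.146 in Apc-min Bmal1-null against 1.03 TPM ± 0.361 in Bmal1-null organoids (-0.72 ± 0.07, adjusted p = 1.16e-11).

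**Figure D4:**
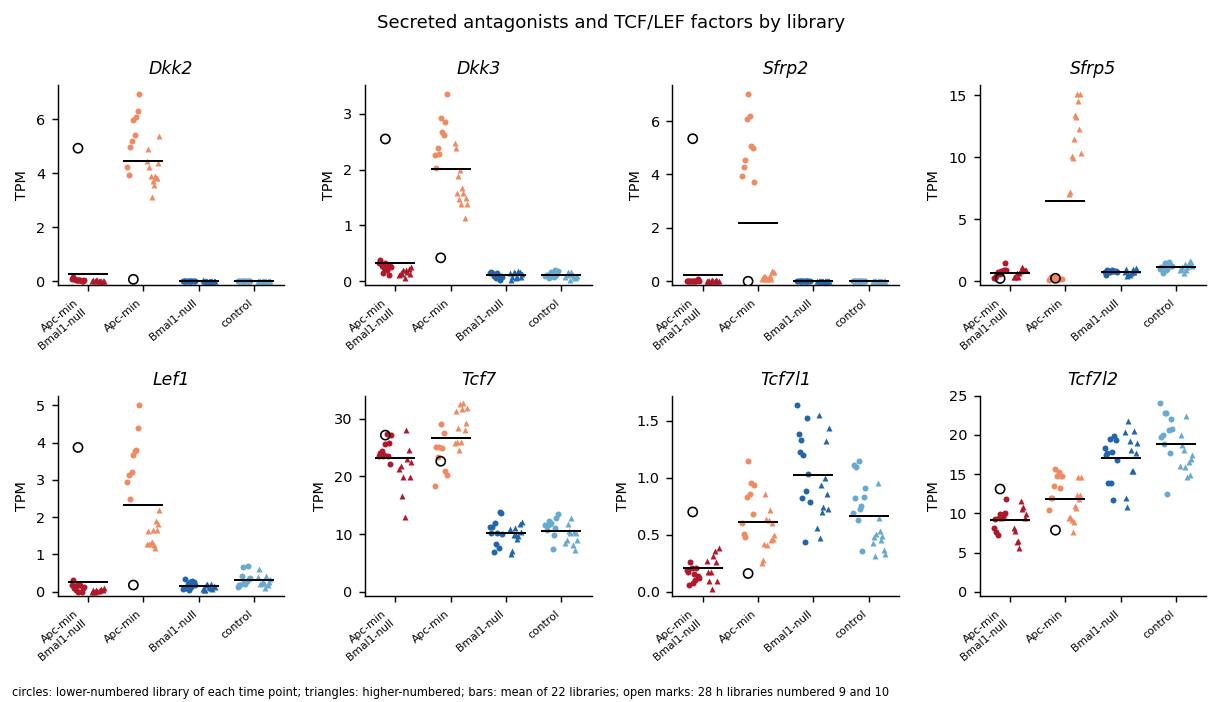
TPM of 4 secreted antagonists and the 4 TCF/LEF factors in every library (y axis, linear, a scale for each gene), by genotype, with marks as in the plot of the Wnt ligands. The open circle among Apc-min Bmal1-null libraries, library 10, is the only one of them above 0.14 TPM for Dkk2 and above 0.31 TPM for Lef1, and the Apc-min values of Sfrp2 and Sfrp5 split by set.

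Few genes of the pathway differed with the Bmal1 genotype alone. Of 22 genes tested between Bmal1-null and control organoids, 1 was higher, beside 2.09% of all 12654 genes, and 1 lower, beside 1.47%. None reached 2-fold in limma, beside 0.079% of all genes higher and 0.0869% lower. An unadjusted p under 0.05 was found for 6 of the 22, beside 1339 of all 12654 genes. Tcf7l1 was at 0.44 to 1.64 TPM (median 0.97) in Bmal1-null and 0.31 to 1.15 TPM (median 0.64) in control libraries (0.28 ± 0.08, adjusted p = 0.0281). Sfrp5 was at 0.42 to 1.05 TPM (median 0.79) in Bmal1-null and 0.64 to 1.65 TPM (median 1.16) in control libraries (-0.28 ± 0.05, adjusted p = 5.84e-05). Both pairs of groups overlapped, and neither call was kept with set means as units. The windows found for Tcf7l1 and Sfrp5 hold no E-box, a motif that 7.15% of all windows hold, and binding of Bmal1 was not tested. The median log2 difference of the 22 genes was -0.02, beside 0.00 over all genes.

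Loss of Bmal1 in organoids with APCmin went with lower Dkk2, Dkk3, Lef1 and several ligands. Both genotypes of this comparison grew in EN medium. Of 29 genes tested between Apc-min Bmal1-null and Apc-min organoids, 16 were lower, beside 35.7% of all 12885 genes, and 6 higher, beside 24.6%. At 2-fold or more 8 were lower, beside 4.5% of all genes, and 0 higher in limma, beside 1.92%. The median of the 29 was -0.25, beside -0.04 over all genes. Of the 8, Dkk2, Dkk3, Lef1, Sfrp2, Sfrp5 and Wnt11 reached 1 TPM in Apc-min but not in Apc-min Bmal1-null organoids. Of the 6 higher, Fzd3 and Fzd9 were the reverse. The filter fixed the direction of such means, so the counts are a description. The 8 were Dkk2 (-2.19 ± 0.19, adjusted p = 3.8e-11), Wnt11 (-1.48 ± 0.33), Sfrp5 (-1.41 ± 0.41), Lef1 (-1.38 ± 0.17), Wnt6 (-1.29 ± 0.14), Dkk3 (-1.19 ± 0.12), Wnt4 (-1.03 ± 0.14) and Sfrp2 (-1.02 ± 0.31, adjusted p = 0.00612). With all libraries, each of the 8 overlapped between the genotypes. Without libraries 9 and 10, Dkk2, Dkk3, Lef1, Wnt6 and Wnt11 no longer did, and Dkk2 differed by -2.42 (adjusted p = 5.67e-26), Lef1 by -1.55 (adjusted p = 9.97e-14) and Dkk3 by -1.31 (adjusted p = 8.39e-17). The other 5 then differed by -1.70 (Wnt11), -1.48 (Sfrp5), -1.38 (Wnt6), -1.20 (Sfrp2) and -1.16 (Wnt4). In the lower-numbered Apc-min libraries, at 0.09 to 0.35 TPM, Sfrp5 was not above the Apc-min Bmal1-null libraries, at 0.22 to 1.45 TPM. Sfrp2 stood at only 0.08 to 0.39 TPM in the higher-numbered Apc-min libraries, so its difference came mostly from the lower-numbered.

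With the means of the library sets as units, 2 per genotype, 5 of the 8 passed in limma, with the share of all genes not counted. These were Dkk2 (adjusted p = 0.00031), Dkk3 (0.00263), Lef1 (0.00702), Wnt4 (0.00882) and Wnt6 (0.0316), and Wnt11, Sfrp5 and Sfrp2 did not pass (0.0873, 0.358 and 0.191). Among the smaller differences Fzd7 was higher in Apc-min Bmal1-null than in Apc-min organoids by 0.66 ± 0.09 (adjusted p = 2.58e-07) and Fzd2 lower (-0.79 ± 0.08, adjusted p = 8.88e-10), and both were kept with set means (adjusted p = 0.017 and 0.00882). Wnt7b was lower (-0.40 ± 0.07) and Wnt7a higher (0.47 ± 0.09) over libraries, and neither passed with set means (adjusted p = 0.159 and 0.0691).

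The difference between organoids with and without APCmin, which also grew in different media, was compared between the Bmal1 genotypes directly. This was the interaction of both genotypes over 88 libraries. Of 32 genes tested 19 passed (59.4%), beside 47.7% of all 13846 genes. A gene entered by reaching 1 TPM in any genotype. Dkk2, Dkk3, Lef1, Sfrp2 and Wnt11 reached it in Apc-min organoids alone, which favours a negative interaction. The counts are therefore a description. With set means as units 2 of the 32 passed, Dkk2 (adjusted p = 0.00339) and Dkk3 (adjusted p = 0.02). The share of all genes passing on set means was not counted. For Dkk2 the log2 difference with APCmin was 0.17 in the Bmal1-null background and 2.39 in the wild-type background. Its interaction was -2.20 ± 0.18 (limma, adjusted p = 1.39e-17), and -2.43 without libraries 9 and 10. Dkk3 gave 0.20 in the Bmal1-null and 1.41 in the wild-type background. The Dkk3 interaction was -1.19 ± 0.11 (adjusted p = 3.09e-14), and -1.31 without the pair. Wnt3, by contrast, differed by -3.68 and -3.73, and its interaction of 0.05 ± 0.06 did not pass (adjusted p = 0.469).

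Other components and targets of the pathway were listed separately, with earlier results of these data known, and are given beside the shares over all genes. Of 48 further components 46 were found. Between Apc-min Bmal1-null and Bmal1-null organoids 13 of 37 tested were higher (35.1%, beside 45.7% of all genes) and 14 lower (37.8%, beside 38.8%), with a median log2 difference of 0.07 beside 0.07 over all genes. Between Apc-min and control organoids 23 of 39 were higher (59%, beside 50.5%) and 8 lower (20.5%, beside 31.1%), with a median of 0.32 beside 0.17. Between Apc-min Bmal1-null and Apc-min organoids 4 of 39 were higher (10.3%, beside 24.6%) and 23 lower (59%, beside 35.7%), with a median of -0.21 beside -0.04. Between Bmal1-null and control organoids 1 of 36 was lower (2.78%, beside 1.47%). It was Kremen2, a receptor for Dkk proteins (1.63 TPM ± 0.359 against 2.26 TPM ± 0.28, -0.32 ± 0.05, limma, adjusted p = 3.88e-05), which did not pass on the means of the library sets (adjusted p = 1.00).

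Of 20 Wnt target genes, 19 were found, and 7 genes (Axin2, Lgr5, Nkd1, Notum, Rnf43, Wif1 and Znrf3) were tested in both lists. Between Apc-min Bmal1-null and Bmal1-null organoids 11 of 18 targets were higher (61.1%, beside 45.7% of all genes) and 4 lower (22.2%, beside 38.8%), with a median log2 difference of 0.79 beside 0.07 over all genes. Between Apc-min and control organoids 14 of 19 were higher (73.7%, beside 50.5%) and 5 lower (26.3%, beside 31.1%), with a median of 1.36 beside 0.17. Between Apc-min Bmal1-null and Apc-min organoids 3 of 19 were higher (15.8%, beside 24.6%) and 14 lower (73.7%, beside 35.7%), with a median of -0.60 beside -0.04. None of 16 passed in limma between Bmal1-null and control organoids, and 2 had an unadjusted p under 0.05, beside 1339 of all 12654 genes.

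Feedback inhibitors gave the largest log2 differences of those lists between Apc-min and control organoids. Notum, an enzyme that removes the lipid from Wnts, was at 5.78 to 294 TPM (median 7.96) in Apc-min Bmal1-null and 12.6 to 376 TPM (median 68.5) in Apc-min libraries, with means of 0.467 TPM ± 0.138 in Bmal1-null and 0.448 TPM ± 0.17 in control organoids (SD, n = 22 each). The 294 TPM belong to library 10 and the 12.6 TPM to library 9. Without them the Apc-min Bmal1-null mean was 8.3 TPM ± 1.8, against 21.3 TPM ± 61 with library 10, and the Apc-min mean 175 TPM ± 131, against 167 TPM ± 133 with library 9 (n = 21 and 22). Nkd1, which acts on Dishevelled, was at 3.14 to 118 TPM in Apc-min Bmal1-null and 9.97 to 137 TPM in Apc-min libraries, with library 10 at the 118 TPM and library 9 at the 9.97 TPM. Its means without them were 7.31 TPM ± 1.69 in Apc-min Bmal1-null (12.3 TPM ± 23.6 with library 10) and 70.2 TPM ± 42.3 in Apc-min organoids, against 1.05 TPM ± 0.26 in Bmal1-null and 1.17 TPM ± 0.303 in control organoids. Both genes were lower in Apc-min Bmal1-null than in Apc-min organoids, with log2 differences of -3.41 ± 0.41 for Notum and -2.52 ± 0.31 for Nkd1 (limma, adjusted p = 2.55e-08 and 3.41e-08). Without the pair the differences were -3.79 ± 0.29 and -2.82 ± 0.21 (adjusted p = 3.32e-13 and 1.72e-13), and the libraries did not overlap. The cyclin gene Ccnd1 averaged 513 TPM ± 86.3 in Apc-min Bmal1-null and 562 TPM ± 70.1 in Apc-min organoids, against 84.6 TPM ± 12.5 in Bmal1-null and 86.9 TPM ± 15 in control organoids (2.57 ± 0.08 and 2.69 ± 0.07). Lgr5, the R-spondin receptor of stem cells, was lower in Apc-min Bmal1-null than in Bmal1-null organoids (-3.01 ± 0.16, adjusted p = 2.07e-19), with means of 3.04 TPM ± 2.2 and 28.8 TPM ± 9.32.

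Fits of a daily cycle gave different counts depending on the library set and on a time trend. A cosine of 24 h period was tested in limma within each genotype. It passed for 2 of 22 genes in Apc-min Bmal1-null organoids, beside 2.59% of all genes, and for 4 of 27 in Apc-min organoids, beside 12%. In Bmal1-null organoids 0 of 21 passed, beside 0.0% of all genes, and in control organoids 0 of 21, beside 0.0557%. An unadjusted p under 0.05 was found for 2 of the 21 in each, beside 864 of all 12550 genes in Bmal1-null and 1539 of 12570 in control organoids. The Wnt7a fit peaked at 28 h in Apc-min Bmal1-null (log2 amplitude 0.41 ± 0.09, adjusted p = 0.0391) and at 28.1 h in Apc-min organoids (0.37 ± 0.09, adjusted p = 0.0327). Fzd7 peaked at 41.3 h in Apc-min Bmal1-null organoids (0.39 ± 0.08, adjusted p = 0.0293). In Apc-min organoids Tcf7l2 (41 h, 0.31 ± 0.05, adjusted p = 0.0163), Wls (41.4 h, 0.20 ± 0.05, adjusted p = 0.0359) and Fzd8 (39.7 h, 0.19 ± 0.05, adjusted p = 0.0377) passed as well. With the library set, on which Apc-min libraries split strongly, as a block in the fit, 3 genes passed in Apc-min Bmal1-null and 9 in Apc-min organoids. The block added Porcn in Apc-min Bmal1-null organoids, and Porcn, Sfrp5, Wnt10a, Fzd1 and Fzd2 in Apc-min organoids. With the block and without libraries 9 and 10 the counts were 4 in Apc-min Bmal1-null and 13 in Apc-min organoids. With a straight time trend in the fit none passed in any genotype. Without libraries 9 and 10 Tcf7l2 alone passed in Apc-min organoids (adjusted p = 0.0322), and 4 genes passed in Apc-min Bmal1-null organoids. The share of all genes passing was counted for the first fit only, so the counts under the other fits are a description.

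In the genotypes without APCmin the lowest p belonged to Porcn, Fzd4 and Fzd2 in Bmal1-null organoids (adjusted p = 0.247, 0.625 and 0.882) and to Sfrp5, Fzd5 and Fzd9 in control organoids (adjusted p = 0.35, 0.351 and 0.417). No difference in 24 h rhythm between genotypes passed in limma, with 0 of 29 between Apc-min Bmal1-null and Apc-min organoids, beside 0.0% of all genes, and 0 of 22 between Bmal1-null and control organoids, beside 0.0395%. An unadjusted p under 0.05 was found for 1 pathway gene in each, beside 880 of all 12885 genes in the first and 237 of 12654 in the second. The time series cover a single day, so a daily cycle and a change that happens once cannot be told apart.

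**Figure D5:**
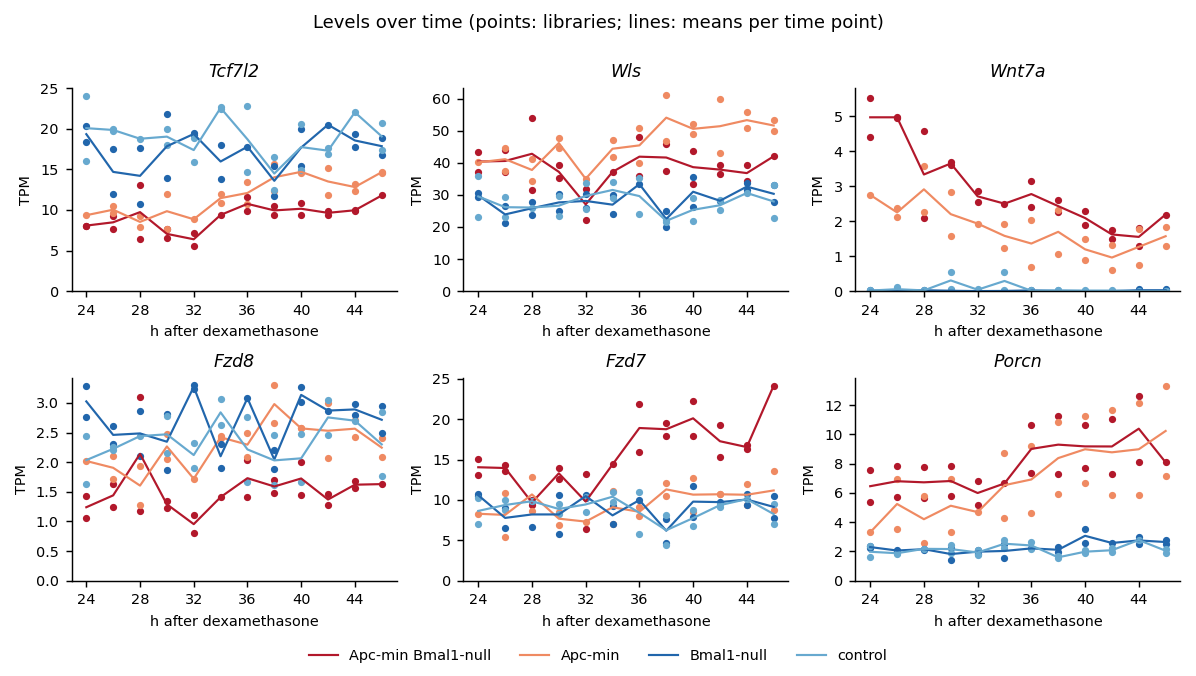
TPM (y axis, linear) of 6 genes against hours after dexamethasone (x axis) in 4 genotypes; points are libraries and lines the mean per time point. Wnt7a is lower late than early in both genotypes with APCmin, Porcn in both of them and Fzd7 in Apc-min Bmal1-null organoids are higher late, and the high point of Wls, Fzd8 and Tcf7l2 at 28 h in Apc-min Bmal1-null organoids is library 10.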

How the data were processed

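RNA-seq was measured in 88 libraries, 22 per genotype. Per the submitters' processing notes, the authors used STAR 2.5, RSEM 1.3.0 and the GRCm38 genome, and deposited TPM values per gene, with alignment counts and percent values of reads per library; reads are known only as these counts. Every value column was matched to a sample (0 were not). Levels were tested as log2(TPM + 1) in limma 3.58.1 (R 4.3.3), with genotype and time point as terms, on genes averaging at least 1 TPM in a compared genotype, with Benjamini-Hochberg adjustment over all genes. A call needs an adjusted p under 0.05, and a 2-fold call also a log2 difference of 1. Rhythm was a 24 h cosine within each genotype. The models were tested on simulated data. Genes past 2-fold are named in full, largest first, and the others by counts and examples. Tables used pandas 2.3.3 and figures matplotlib 3.10.9. The genes and gene lists were chosen with earlier results of these data known. Sequences are from RefSeq (GRCm38.p6). Alternatives were library set means as units, the library set as a block, another pseudocount, other filters, median-of-ratios scaling and a linear time term. Leaving out libraries 9 and 10 was chosen after seeing the data.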

Additional observations from a re-analysis of the deposited data

Results flagged for a closer look

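The log2 difference between organoids with and without APCmin varied with the Bmal1 genotype for 19 genes of the pathway. The test was the limma interaction over 88 libraries, at an adjusted p under 0.05 over all genes. Dkk2, Dkk3, Lef1, Sfrp2 and Wnt11 entered it only by reaching 1 TPM in Apc-min organoids, which favours a negative value, so the list is a description. Values are the difference in the Bmal1-null background minus that in the wild-type background. They were below 0 for Dkk2 (-2.20), Wnt11 (-1.54), Wnt6 (-1.41), Lef1 (-1.20), Dkk3 (-1.19), Sfrp5 (-1.10), Sfrp2 (-1.04), Wnt4 (-1.02), Wnt10a (-0.78), Tcf7l1 (-0.69), Fzd2 (-0.61), Fzd6 (-0.56), Fzd8 (-0.54), Wnt7b (-0.38), Wls (-0.30) and Fzd4 (-0.23). They were above 0 for Fzd7 (0.60), Wnt7a (0.58) and Fzd9 (0.40). With library set means as units, Dkk2 and Dkk3 passed, and the other 17 did not. Without libraries 9 and 10 all 19 passed, with values of -2.43 for Dkk2, -1.76 for Wnt11 and -1.37 for Lef1.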

How the results depend on the processing

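No called level or interaction result changed direction under any alternative. A rhythm amplitude cannot be below 0, so direction was not compared for rhythm. Library numbers do not pair samples across genotypes; within a genotype the replicate block separates the library sets. Of the called single genes, 564 level results kept their call over the alternatives and 47 lost it, against 104 and 37 for the interaction and 29 and 16 for rhythm. With a minimum of 5 TPM, which leaves fewer genes, the 2-fold counts were 4 higher and 2 lower for Apc-min Bmal1-null over Bmal1-null, 7 higher and 3 lower for Apc-min over control and 2 lower for Apc-min Bmal1-null over Apc-min, with 8 for the interaction. With set means as units, which leaves 2 values per genotype, 4 genes were 2-fold lower in Apc-min Bmal1-null than in Apc-min organoids and 2 passed the interaction; also without libraries 9 and 10 these were 5 and 2. Rhythm calls in Apc-min Bmal1-null organoids numbered 4 without libraries 9 and 10, 3 with the replicate block, 4 with that block and without the libraries, 1 with the minimum of 5 TPM, 1 with no filter and 0 with a linear time term. In Apc-min organoids they numbered 1 without those libraries, 9 with the replicate block, 13 with the block and without the libraries, 2 with the minimum of 5 TPM, 2 after scaling, 1 with no filter and 0 with a linear time term. The causes were not tested. Shares over all genes were counted for the main fits only, so the counts under alternatives are a description. The authors' quantile-normalized tables were not run as an alternative, and leaving out single replicates was not, since groups hold 22 libraries. TPM values carry no read depth per gene, so counting error at low levels is unknown.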
